A study of Mus musculus with 6 samples.

Results

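The enzymes of serine, asparagine, mitochondrial folate and proline synthesis were followed in mouse hippocampus after cerebral ischemia/reperfusion (I/R). Members were the genes whose name in the table is 1 of a fixed set of 9 (Phgdh, Psat1, Psph, Asns, Shmt2, Mthfd2, Aldh1l2, Aldh18a1 and Pycr1). Of these 9, 8 were found among 41386 genes, and Phgdh was not analysed here. All 8 passed the filter on low counts.

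Hippocampal RNA was sequenced in 3 I/R libraries and 3 sham libraries from wild type C57BL/6 mice (C57BL/6J in the study's methods), 56 days old. In the I/R group a filament blocked the left middle cerebral artery for 1.5 h, and the tissue was taken after 24 h of reperfusion. Sham mice had the same surgery without the filament. Mice were male and only the hippocampus of the operated side was used. A replicate is a pool of 3 hippocampi, and errors therefore give the variation of pools rather than of animals.

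Cells build serine from a glycolytic intermediate through the dehydrogenase Phgdh, the aminotransferase Psat1 and the phosphatase Psph. Serine then gives a carbon unit to folate inside mitochondria, where Shmt2, Mthfd2 and Aldh1l2 act in turn on the folate-bound unit. Asns makes asparagine from aspartate, with glutamine as the nitrogen donor, and Aldh18a1 and Pycr1 make proline from glutamate. In brain, serine made by astrocytes is the source of D-serine, a co-agonist of the NMDA receptor, and many of these genes are known targets of ATF4, the transcription factor of the integrated stress response.

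ATF4 binds DNA as a dimer with C/EBP proteins at a composite site with the letters TGATGNAA. These letters, read on either strand, were looked for from 250 bases before to 50 bases after each gene start in the RefSeq promoters of mouse (GRCm38.p6). Among the 9 listed enzymes, 8 had a promoter entry, Phgdh included; the entry for Aldh1l2 is missing. Asns and Pycr1 held the letters, 2 of these 8 genes (25%), against 1219 of all 27025 genes with a promoter (4.51%). The stretches below are shown because they are the members' own matches, followed by the matches of a pair of ATF4 targets described further on. The letters that match are in capitals, and each stretch is written on the strand of its gene.
Asns: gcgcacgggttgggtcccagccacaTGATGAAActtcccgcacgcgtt
Pycr1: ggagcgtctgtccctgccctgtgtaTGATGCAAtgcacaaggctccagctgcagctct
Chac1: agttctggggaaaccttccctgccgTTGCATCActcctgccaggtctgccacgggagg
Fgf21: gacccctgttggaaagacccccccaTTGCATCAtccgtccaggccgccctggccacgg
On GRCm38.p6 these are chr6:7693210-7693257 (Asns, minus strand), chr11:120643819-120643876 (Pycr1, minus strand), chr2:119351024-119351081 (Chac1, plus strand) and chr7:45615597-45615654 (Fgf21, minus strand). The match began 23 bases before the gene start in Asns, 103 bases before it in Pycr1, 193 in Chac1 and 139 in Fgf21. In Chac1 and Fgf21 the letters lie on the opposite strand. Psat1, Psph, Shmt2, Mthfd2, Aldh18a1 and Phgdh had no match in this window. Among other known ATF4 targets 7 of 16 genes with a promoter entry held the letters (43.8%), among the cytosolic aminoacyl-tRNA synthetases 5 of 13 (38.5%) and among the other folate enzymes 0 of 16. Of these 7 targets, Vldlr is called lower in I/R further on and the rest are called higher. Got1, an aspartate aminotransferase, also held the letters and is called lower. A match is a description of the sequence, and binding was not measured.

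The total count was 37527226 to 39553637 per I/R library and 37493042 to 44788547 per sham library. Markers of hippocampal neurons, 8 of 8 detected in every library, were summed as CPM (a gene's counts relative to the TMM-scaled total of its library, where TMM is edgeR's trimmed mean of M-values). The sum was 5152 to 5397 CPM in sham and 1247 to 2857 CPM in I/R, and 7 of the 8 were called lower. Markers of other cell types moved as well. Markers of reactive astrocytes went from 62.98 to 77.84 CPM in sham to 666.2 to 1314 CPM in I/R (6 of 6 called higher), and markers of monocytes and macrophages from 10.67 to 12.65 CPM to 134.8 to 282.6 CPM (5 of 6 higher). Cd14 (180.4, 82.83 and 70.12 CPM) and Msr1 (60.02, 43.03 and 37.13 CPM) held most of this last I/R sum. Ccr2 was at 1.824, 0.5753 and 2.176 CPM in I/R, and Ms4a7 was not called. Which cells held these transcripts was not measured. Neutrophil markers summed to 0.2325 to 1.562 CPM in sham, where Cxcr2 and Ngp were at 0, and to 6.327 to 32.3 CPM in I/R. In bulk tissue, a change in the number of cells of a type and a change in RNA per cell cannot be told apart, and the part these shifts play in the results below was not tested.

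Differentially expressed genes (DEGs) had to pass 0.05 in edgeR's quasi-likelihood test, with p-values adjusted by Benjamini-Hochberg over the 18569 genes tested, and to differ by more than 1.2-fold. Across all genes 7756 (41.8%) were DEGs, 4054 (21.8%) higher and 3702 (19.9%) lower in I/R. Of the 8 enzymes, 7 were called higher, 0 were called lower, and Pycr1 was not called. With a fold change over 2, which 1893 of all genes (10.2%) reached upward, 5 of the 8 were called higher: Mthfd2, Aldh1l2, Psph, Shmt2 and Aldh18a1. In 7 of the 8 every I/R library lay above every sham library, an order found in 29.3% of all genes, and in 0 of the 8 did every one lie below, the order of 28.1% of all genes.

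**Figure D1:**
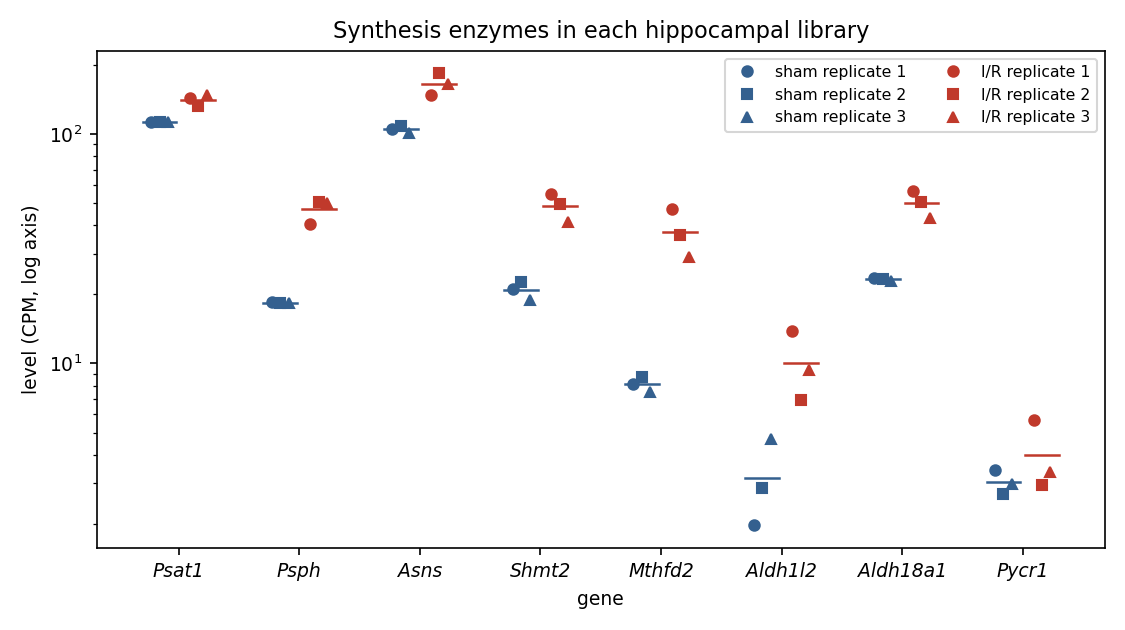
Level of each enzyme (CPM, log axis) in each of the 6 libraries. Each point is 1 library, blue for sham and red for I/R, the shape gives the replicate, and the short line is the group mean. The groups are apart in 7 genes and overlap in Pycr1, where only I/R replicate 1, at 5.69 CPM, lies above the sham libraries.

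Serine synthesis was represented by its last steps. Psat1, the phosphoserine aminotransferase, lies on the minus strand of chromosome 19, at 12855123 to 12899160 (BALB/cJ assembly as for all genes below, identifier MGP_BALBcJ_G0024932). Its level was 143.7, 132.1 and 148.2 CPM in I/R replicates 1, 2 and 3, against 112.7, 112.6 and 113.2 CPM in sham. The sham libraries were nearly equal and all I/R libraries lay above them, so that the groups did not overlap. The log2 fold change was 0.32 with a standard error (SE) of 0.08 (edgeR adjusted p of 0.0141), and 32.4% of all genes tested had a higher one. This was the smallest called change among the enzymes, and the call was lost without I/R replicate 3 (log2 fold change 0.26, adjusted p of 0.0542) and without sham replicate 1, 2 or 3 (edgeR adjusted p of 0.0661, 0.0629 and 0.0703), where the log2 fold change stayed at 0.32.

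Psph, the phosphatase that releases free serine, is on chromosome 5 from 129607048 to 129628640 (minus strand, MGP_BALBcJ_G0030108). It stood at 40.34, 50.66 and 50.14 CPM in I/R, against 18.6, 18.36 and 18.31 CPM in sham. I/R replicate 1 was the lowest I/R library, and it was still above all sham libraries. Psph rose by 1.35 ± 0.11 on the log2 scale (SE; edgeR adjusted p of 0.000326), a fold of 2.55. Of the 50-base stretches of its transcripts, 8.82% also occur in Cct6a. An unnamed gene on the other strand overlaps 255 bases of Psph. That gene had 12445 to 13800 counts per library in I/R and 6426 to 7742 in sham, against 630 to 2025 for Psph over all libraries. Whether reads were counted by strand is not given in the sources used here, so part of the Psph level and of its change is uncertain.

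Asns, the asparagine synthetase, is on chromosome 6 from 4391542 to 4413765 (minus strand, MGP_BALBcJ_G0030426) and carries the promoter letters shown above. It was measured at 148.1, 183.8 and 165.1 CPM in I/R, against 105.0, 108.7 and 100.8 in sham. As in Psph, I/R replicate 1 was the lowest of its group, and the groups did not overlap. Asns rose by 0.66 ± 0.10 (log2, SE; edgeR adjusted p of 0.00202), a fold of 1.58.

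The mitochondrial folate enzymes included the largest changes among the 8. Shmt2, which splits serine into glycine and a carbon unit on tetrahydrofolate, is on chromosome 10 from 126288026 to 126293701 (minus strand, MGP_BALBcJ_G0017764). Its level was 54.99, 49.51 and 41.26 CPM in I/R, against 21.03, 22.74 and 18.98 CPM in sham. All I/R libraries were well above the highest sham library. The rise was 1.22 ± 0.13 (log2, SE; edgeR adjusted p of 0.000673), a fold of 2.32.

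Mthfd2, the dehydrogenase and cyclohydrolase of the next step, is on chromosome 6 from 81123404 to 81143326 (minus strand, MGP_BALBcJ_G0030907). It is known for its low level in most adult tissues and its induction in dividing and stressed cells. Its I/R libraries held 46.91, 36.4 and 29.16 CPM, and its sham libraries 8.171, 8.76 and 7.499 CPM. The I/R values spread more than the sham values, and the lowest of them was still far above the sham group. Mthfd2 rose by 2.20 ± 0.18 (log2, SE; edgeR adjusted p of 0.000315), a fold of 4.6, and 3.68% of all genes tested had a higher log2 fold change. An unnamed gene on the same strand overlaps 2788 bases of it and had 2 to 65 counts per library, against 258 to 2135 for Mthfd2.

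Aldh1l2, which oxidises formyl-tetrahydrofolate in mitochondria, is on chromosome 10 from 81693769 to 81745669 (minus strand, MGP_BALBcJ_G0017529). It had 13.91, 6.929 and 9.377 CPM in I/R, against 1.972, 2.879 and 4.679 CPM in sham. Both groups were spread, from 77 to 161 counts in sham and from 277 to 633 in I/R, but they did not overlap. Aldh1l2 rose by 1.67 ± 0.36 (log2, SE; edgeR adjusted p of 0.0081). The SE is the widest of the 8 enzymes, and the estimate ran from 1.36 without I/R replicate 1 to 2.04 without sham replicate 3. Of its 50-base stretches, 13.6% occur in other genes, so its counts are less certain than those of Asns, Mthfd2 and Aldh18a1, which share 0%.

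For proline synthesis, Aldh18a1, the enzyme that turns glutamate into the precursor of proline and ornithine, is on chromosome 19 from 37915388 to 37954288 (minus strand, MGP_BALBcJ_G0025083). Levels were 56.4, 50.56 and 43.19 CPM in I/R, against 23.62, 23.35 and 22.96 CPM in sham. The sham libraries were again nearly equal and the I/R libraries all lay above them. Aldh18a1 rose by 1.10 ± 0.11 (log2, SE; edgeR adjusted p of 0.000592), a fold of 2.15.

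Pycr1, the reductase of the final step in mitochondria, is on chromosome 11 from 119903078 to 119912736 (minus strand, MGP_BALBcJ_G0019461). It had 5.69, 2.952 and 3.351 CPM in I/R, against 3.432, 2.707 and 2.994 CPM in sham. I/R replicate 1 stood apart, and the other I/R libraries lay within the sham range. The log2 fold change was 0.40 ± 0.28 (SE; edgeR adjusted p of 0.297), and without I/R replicate 1 it was 0.05 (edgeR adjusted p of 0.893). So Pycr1, like Asns a gene with the letters in its promoter, was the only enzyme of the 8 without a call, at 103 to 259 counts per library.

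**Figure D2:**
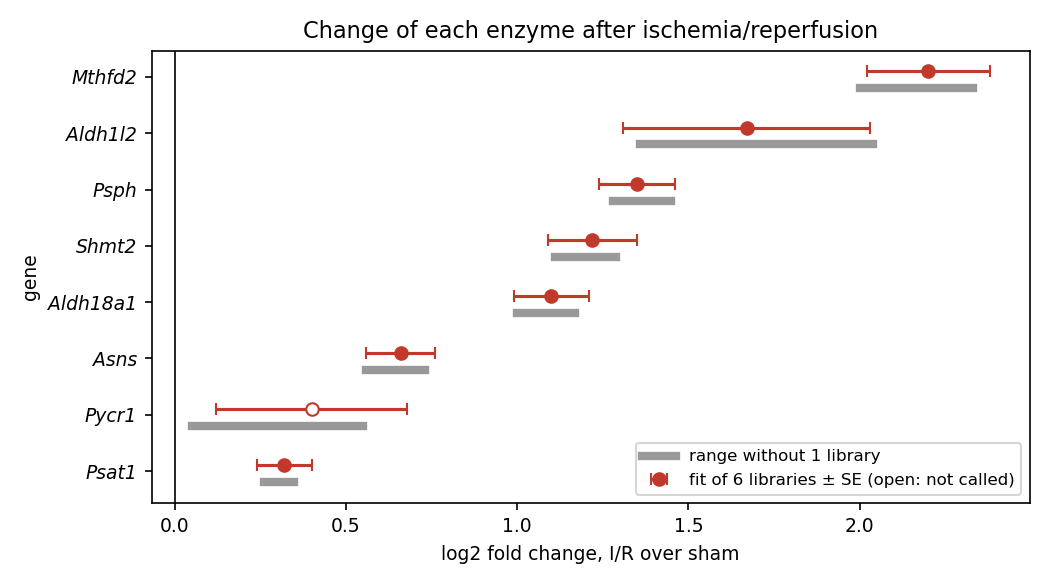
Log2 fold change of each enzyme, I/R over sham, from the fit of all 6 libraries (red point, filled where called) with its SE (red bar), and the range of the estimate when 1 library is left out (grey bar). Mthfd2 is highest at 2.20 and Psat1 lowest at 0.32, and the grey bar of Pycr1 reaches down to 0.05.

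The I/R libraries did not rank alike in all enzymes. I/R replicate 1 was the highest I/R library in Shmt2, Mthfd2, Aldh1l2, Aldh18a1 and Pycr1, and the lowest in Psph and Asns. That library had the lowest mean level of neuronal markers (6.46 as mean log2 CPM, against 7.31 and 7.47 in I/R replicates 2 and 3). Its reactive astrocyte markers were the highest of the I/R libraries (7.22, against 6.5 and 6.3). Its markers of monocytes and macrophages (3.86, against 2.81 and 3.08) and of neutrophils (2.02, against 0.49 and -0.06) were highest too. So were those of endothelium (5.69, against 5.43 and 5.27) and fibroblasts (5.15, against 4.56 and 4.4). Oligodendrocyte and cell cycle markers were highest there by less. Astrocyte markers were lowest (8.2, against 8.25 and 8.31), and microglial and choroid plexus markers lay between those of I/R replicates 2 and 3. Whether the enzymes follow these markers was not tested. Without I/R replicate 1 the log2 fold changes were 1.11 for Shmt2, 1.36 for Aldh1l2 and 2.0 for Mthfd2, all still called by edgeR, as was Aldh18a1.

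Levels of different enzymes were set side by side as FPKM, which divides by gene length. In sham, Asns was highest at 97.4 ± 3.16 FPKM (SD, n = 3), followed by Psat1 at 83.8 ± 0.752 FPKM. Psph (17.7 FPKM) and Aldh18a1 (14.5 FPKM) came next, and then Mthfd2 (8.63 FPKM) and Shmt2 (8.30 FPKM), whose libraries overlapped. Pycr1 (2.34 FPKM) and Aldh1l2 (1.84 FPKM) were lowest and also overlapped. In I/R, Asns (183 ± 13.7 FPKM) and Psat1 (125 ± 10.2 FPKM) still led. Mthfd2, at 47.8 ± 13.6 FPKM, stood beside Psph at 53.7 ± 4.36 FPKM, with overlapping libraries, and it also overlapped Aldh18a1 at 37.2 ± 6.49 FPKM. Shmt2 followed at 23.1 ± 4.24 FPKM, and Aldh1l2 at 7.02 FPKM now stood above Pycr1 at 3.71 FPKM, again with overlap. This order rests on the gene length used: with the length the table prints beside each gene, Shmt2 came directly after Asns and Psat1 in both groups (8.30 in sham and 23.1 in I/R), ahead of Psph at 5.82 in sham.

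Several of the enzymes have a relative with the same chemistry in another compartment or tissue, and Asns has a counterpart in Glul, which also handles amide nitrogen. The change was compared within each library as a ratio of CPM. These ratios are not corrected for gene length, so they give the difference between the groups and not which gene of a pair is higher. Of 7 such pairs, 5 had ratios that did not overlap between the groups. In each of these 5 the enzyme itself was called higher and its libraries did not overlap. Of all genes tested, 29.3% had every I/R library above every sham library and 28.1% had every one below. No such share was measured for ratios of other gene pairs, so the count of pairs is no result beyond the single genes. With 3 libraries a side the exact two-sided permutation test cannot go below p = 0.1, which becomes 0.14 after Benjamini-Hochberg adjustment over the 7 pairs, so no pair could pass a threshold of 0.05.

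Shmt2 over its cytosolic counterpart Shmt1 was 10.7, 8.64 and 6.65 in I/R, against 3.06, 3.6 and 2.35 in sham. All I/R ratios were above the sham ratios, a difference of 1.52 on the log2 scale (exact permutation p of 0.1, adjusted 0.14). Shmt1 itself had a log2 fold change of -0.32 (edgeR adjusted p of 0.164).

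Mthfd2 was set against Mthfd2l, the mitochondrial enzyme of adult tissues, and against Mthfd1, the cytosolic enzyme. Mthfd2 over Mthfd2l was 4.85, 4.02 and 2.72 in I/R, against 1.02, 1.13 and 1.0 in sham. As FPKM, which divides by length, the ratio was 10.7, 8.89 and 6.02 in I/R, against 2.26, 2.51 and 2.21 in sham, so that Mthfd2 was the higher gene in both groups. By either unit the groups did not overlap. The log2 difference was 1.84. Mthfd2 over Mthfd1 was 0.7, 0.711 and 0.594 in I/R, against 0.19, 0.172 and 0.15 in sham, a log2 difference of 1.97. As FPKM this ratio was 2.7, 2.74 and 2.29 in I/R, against 0.73, 0.663 and 0.579 in sham. Which of these genes was higher in I/R therefore depended on the length scaling, and the difference between the groups did not. Mthfd2l (0.34, edgeR adjusted p of 0.0733) and Mthfd1 (0.22, edgeR adjusted p of 0.236) were not called.

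Aldh1l2 over Aldh1l1, the cytosolic enzyme that marks astrocytes, was 0.216, 0.134 and 0.153 in I/R, against 0.0407, 0.058 and 0.0867 in sham. The groups did not overlap, and the log2 difference was 1.48. Aldh1l1 had a log2 fold change of 0.22 (edgeR adjusted p of 0.12). With library size as the only scaling Mthfd2l, Mthfd1, Aldh1l1 and the Pycr1 relative Pycr3 were each called higher, by 0.60, 0.48, 0.48 and 0.47 (log2), while the ratios stay as they are because both genes of a pair share the scaling.

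Asns was set against Glul, the glutamine synthetase of astrocytes. The ratio was 0.118, 0.174 and 0.138 in I/R, against 0.0564, 0.0601 and 0.048 in sham. It was higher in all I/R libraries, by 1.37 on the log2 scale, with Asns higher and Glul lower (-0.72 ± 0.14, edgeR adjusted p of 0.00586).

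Pycr1 was compared with Pycr3, the cytosolic form. The ratio was 0.256, 0.142 and 0.153 in I/R, against 0.202, 0.129 and 0.167 in sham. The groups overlapped in this pair. The log2 difference was 0.12 (exact permutation p of 0.7), and it was -0.14 without I/R replicate 1 and -0.05 without sham replicate 2.

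**Figure D3:**
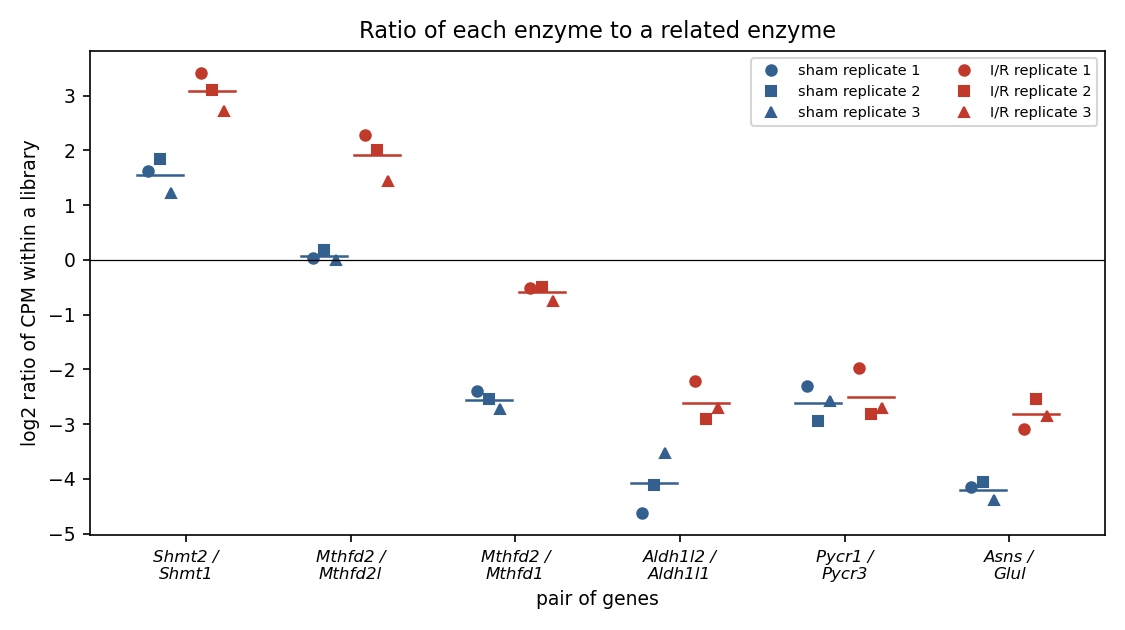
Log2 ratio of CPM of each enzyme to a related enzyme within each library. Points are single libraries, blue for sham and red for I/R with the shape giving the replicate, short lines are group means, and 0 marks equal CPM. The I/R and sham points are apart in 5 of the 6 pairs shown and overlap in Pycr1 over Pycr3.

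Other genes of the same metabolism were described from lists, each beside the median log2 fold change of all genes tested, which was 0.03. The lists below held 66 calls in all, 54 higher and 12 lower, with Gpt2 and Cth in 2 lists each and counted once. With library size as the only scaling they held 74 calls, 67 higher and 7 lower. That scaling gave 8361 calls across all genes, 6334 of them higher. The number of genes tested is given with each list, and across all genes 41.8% were called, 21.8% higher and 19.9% lower. Among the enzymes the median was 0.84 for serine synthesis (2 genes), 1.67 for the mitochondrial folate enzymes (3 genes) and 0.75 for proline synthesis (2 genes). Of 16 other folate enzymes and carriers tested, 4 rose and 0 fell, with a median of 0.18. The share that rose is near the 21.8% of all genes called higher. Fpgs, which adds the glutamate tail that keeps folate in the cell, rose by 1.12 ± 0.22 (log2, SE; edgeR adjusted p of 0.0051), and Atic, of purine synthesis, by 0.60 ± 0.11. Mthfd1l, the mitochondrial formyl-folate ligase, named here after its value was seen, was also called, at 0.32 (edgeR adjusted p of 0.0368). Shmt1 and the mitochondrial folate carrier Slc25a32 were among the 12 not called.

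Of 11 genes that break down or use glycine and serine, 2 rose and 2 fell, and the median was 0.04. These counts are near the shares of all genes called higher (21.8%) and lower (19.9%), so they are no result about the list, and the called genes are given as values. Cth, of cysteine synthesis, rose by 1.38 ± 0.29 (log2, SE; edgeR adjusted p of 0.0075) and was at 0.95 without I/R replicate 1. Gatm, the first enzyme of creatine synthesis, rose by 0.71 ± 0.11. Srr, the racemase that makes D-serine, fell by 0.83 on the log2 scale (edgeR adjusted p of 0.00592), from 65.48 to 72.05 CPM in sham to 28.87 to 46.56 CPM in I/R. The other called gene was Gldc, of the glycine cleavage system, at -0.68.

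Among 5 partners in proline and glutamate metabolism, Prodh, the first enzyme of proline breakdown, was the only call, at -0.88 ± 0.11 (log2, SE; edgeR adjusted p of 0.000934), and the list's median was -0.05. Since 19.9% of all genes were called lower, this count is no result about the list. Of 9 partners of aspartate, asparagine and glutamine, 1 rose and 7 fell, against 21.8% and 19.9% of all genes. The median of this list was -0.63. Of its asparaginases, which break down asparagine, Aspg rose and Asrgl1 fell. Aspg was at 32.36, 21.34 and 18.68 CPM in I/R, against 2.92, 2.707 and 1.657 CPM in sham, so its log2 fold change was 3.31 ± 0.29 (edgeR adjusted p of 0.000348). Asrgl1, named after its value was seen, was at 130.5, 120.3 and 123.7 CPM in I/R, against 202.8, 196.2 and 199.9 CPM in sham, and its log2 fold change was -0.68 ± 0.08 (edgeR adjusted p of 0.000894). The glutaminase Gls2 was at -0.92 (log2), and the aspartate aminotransferases Got1 and Got2 were also called lower. The marker sums of neurons given above were lower in I/R as well, and their part in this list was not tested.

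The ATF4 pathway itself was then read from genes that act in it. Of 15 regulators, 12 rose and 1 fell, with a median log2 fold change of 1.17. Across all genes 21.8% were called higher and 19.9% lower. Atf4 stood at 258.6, 231.2 and 217.1 CPM in I/R, against 110.9, 123.6 and 109.0 CPM in sham. The groups did not overlap, and the log2 fold change was 1.04 ± 0.10 (edgeR adjusted p of 0.000523). Ddit3 (CHOP), a partner of ATF4 in prolonged stress, rose by 1.38 ± 0.13 (edgeR adjusted p of 0.000385). Trib3, a pseudokinase that restrains ATF4, was at 12.57, 6.929 and 5.151 CPM in I/R, against 0.6147, 0.3199 and 0.3197 CPM in sham, which gave 4.28 ± 0.44 as the log2 fold change (edgeR adjusted p of 0.000589). Its sham libraries held only 24, 13 and 11 counts, and the estimate ran from 2.73 to 4.66 over 18 alternative settings. Ppp1r15a (GADD34), which reverses the phosphorylation of eIF2α, rose by 1.89 ± 0.18, and Myc by 1.97 ± 0.19. The kinases that phosphorylate eIF2α, named after their values were seen, differed: Eif2ak2 (PKR) rose by 1.18, Eif2ak1 (HRI) was at -0.36 and called lower, and Eif2ak3 (PERK, 0.21) and Eif2ak4 (GCN2, 0.24) were not called. With library size as the only scaling, Eif2ak1 was at -0.10 and not called, and Eif2ak3 and Eif2ak4 were called higher at 0.47 and 0.51.

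Of 21 other known ATF4 targets, 17 rose and 2 fell, against 21.8% of all genes called higher and 19.9% lower. The median was 1.38. Gdf15, a circulating stress hormone, rose by 6.46 ± 0.41 (log2, SE; edgeR adjusted p of 0.000212), and Eif4ebp1, a brake on translation, by 2.96 ± 0.23. The Gdf15 value rests on 6, 8 and 10 sham counts, and it ran from 3.67 to 6.73 over 17 alternative settings. Fgf21, whose promoter stretch is shown above, had 74, 102 and 86 counts in I/R, against 0, 0 and 4 in sham. Its log2 fold change was 5.77 ± 0.80 (edgeR adjusted p of 0.00148), a value that rests on very few sham reads and was 9.43 without sham replicate 3. Chac1, which breaks down glutathione and is also shown above, was at 39.63, 28.52 and 20.21 CPM in I/R, against 8.068, 8.071 and 7.789 CPM in sham, a rise of 1.88 ± 0.23 (edgeR adjusted p of 0.000962). Gpt2 and Vldlr were the members of this list called lower.

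The cytosolic aminoacyl-tRNA synthetases load amino acids onto tRNA and are in part ATF4 targets. They rose in 19 of 20 cases and fell in 0, against 21.8% and 19.9% of all genes. Their median was 0.57. Rars1 and Eprs1 each rose by 1.10 and Tars1 by 1.04 (edgeR adjusted p of 0.00028, 0.000345 and 0.000399), and Wars1 was not called. In all 20 the I/R libraries lay above the sham libraries, an order found in 29.3% of all genes. The synthetase for asparagine, Nars1, rose by 0.58 and that for serine, Sars1, by 0.49, beside 0.66 for Asns.

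**Figure D4:**
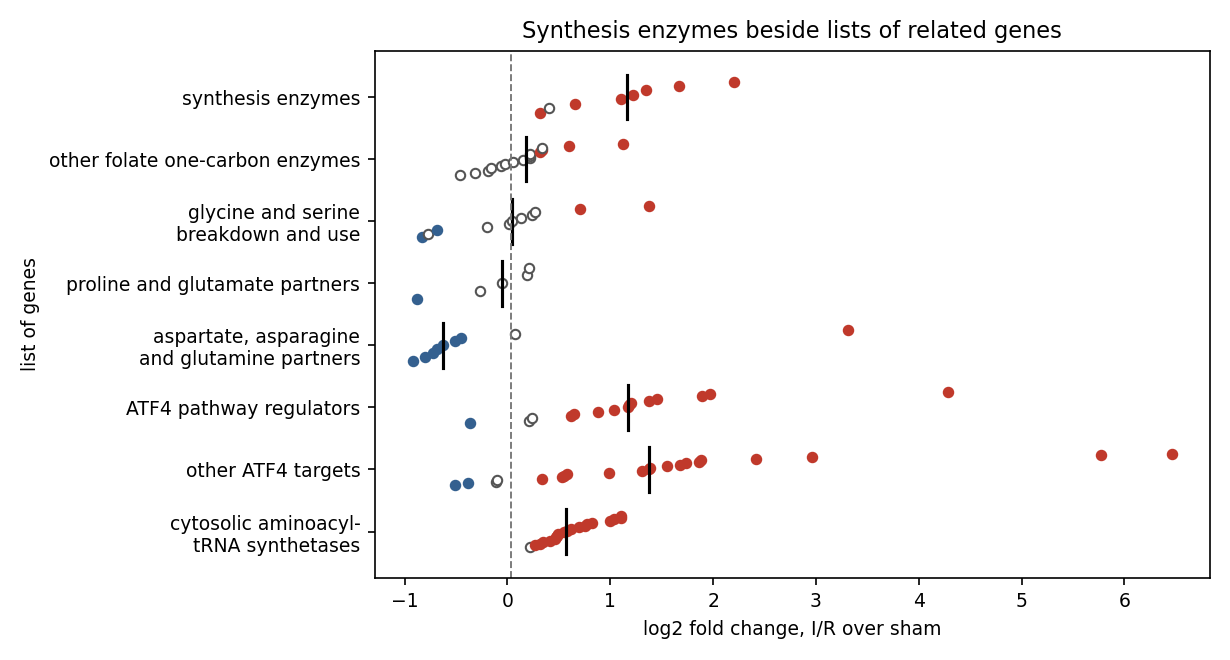
Log2 fold change (I/R over sham) of each gene of the 8 lists. Red points were called higher, blue lower, open points were not called, the black bar is the median of the list, and the dashed line is the median of all genes tested (0.03); vertical offsets only separate points. The enzymes, the ATF4 regulators and the other ATF4 targets have medians above 1, and the aspartate, asparagine and glutamine partners have one of -0.63.

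Genes whose profile was most like that of the enzymes were found from the mean of the 8 enzymes' log2 CPM, each centred on its own mean over the 6 libraries. That mean profile was 0.73, 0.47 and 0.45 in I/R, against -0.59, -0.54 and -0.51 in sham. The nearest named genes by root mean square distance over the 6 libraries were Fbxo30 (0.0226), Slc39a1 (0.0346), Psme2 (0.0379), Mapk6 (0.0389) and Rps26 (0.0476), on the log2 scale. Of the enzymes, Aldh18a1 lay closest to the mean profile (0.0683) and Mthfd2, whose change was the largest, farthest (0.554). Among all genes tested they had rank 17 and rank 7154, with Psph at 968 and Asns at 1574. Many other genes thus lay nearer to the mean profile than most enzymes did, and the named genes are like the mean rather than like each enzyme.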

How the data were processed

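Hippocampal RNA-seq of 3 I/R and 3 sham libraries was analysed, grouped by sample title. Per the study's methods, reads were aligned with TopHat2 to an Ensembl genome and counted with HTSeq; the submitters' processing notes name Bowtie 0.12.2 and mm8 with no role. The authors deposited raw counts per gene, FPKM, group means as scaled signal, and a log2 fold change, p-value and adjusted p of their own comparison, none of which was used beside the counts and FPKM. Deposited identifiers are of Ensembl's BALB/cJ annotation, although the mice were C57BL/6 by the labels and C57BL/6J by the study's methods, and strand use in counting is not given in the sources used here. The table had 41390 lines, of which 4 split ones were rejoined to give 41386 genes. The deposited FPKM matched count over depth with 1 length per gene in 100.0% of 13739 genes (at least 50 counts per library, tolerance 1%), but that length was the printed one in 27.2%.

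The quasi-likelihood test was run in R 4.3.3 with edgeR 4.0.16 on the deposited counts (filterByExpr, TMM factors of 1.06 to 1.15 for I/R and 0.908 to 0.92 in sham, robust glmQLFit, glmQLFTest, no covariates) and adjusted by Benjamini-Hochberg over 18569 genes. Calls needed an adjusted p below 0.05 together with a change of more than 1.2-fold either way. SE is the log2 fold change over the square root of F. The scripts were tested on simulated data with 200 changed genes. Alternatives were other scalings, filters and tools (DESeq2 1.42.0, limma 3.58.1), a replicate block, a choroid plexus covariate, a fold change over 2 and leaving out each library. Libraries are pools with no stated link between groups, so p-values measure the spread between pools. Sequence shared between genes was read from GENCODE M21 transcripts, and promoters from RefSeq.

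The named genes were all 9 enzymes, the genes of the pairs, Atf4, Ddit3, Trib3 and Chac1, up to 3 called genes with the largest absolute change per list, and the 5 genes of most similar profile. Some genes this rule names, and 1 of the 7 pairs, are not reported here. Genes outside it are named only as counts or examples of a list. Mthfs, Tyms and Gart, like Phgdh, were not analysed here, and older symbols (such as Pycrl for Pycr3) were matched. The enzymes and lists were chosen with earlier results of these data known.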

Additional observations from a re-analysis of the deposited data

How the results depend on the processing

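Of the 8 enzymes, Psph, Shmt2, Mthfd2, Aldh1l2 and Aldh18a1 kept their call under all 18 alternatives, Asns under all but a fold change over 2, and Pycr1 was never called. The count of enzymes called higher was 7, and 6 to 7 when 1 library was left out. Across all genes the count was 7756, and with 1 library left out it ran from 5330 (sham replicate 2 omitted) to 7976 (I/R replicate 1 omitted); for the other lists it was 66, and 56 to 68. A fold change over 2 left 2760 of all genes (14.9% of those tested) and 26 of the listed genes. Pairs without overlap numbered 5, and 5 to 6 with 1 library left out. The difference of Pycr1 over Pycr3 changed sign, to -0.14 without I/R replicate 1 and -0.05 without sham replicate 2. Scaling by library size only made 75.8% of calls higher, and limma on FPKM plus 1 or plus 0.1 made 75% or 75.5%, against 52.3% with TMM. The median of all genes was 0.28 with library size only. No source links libraries of the same replicate number. Deviations from the group mean correlated at -0.097, 0.056 and -0.184 between such libraries, and no library correlated best with its own number. The highest value, 0.267, joined I/R replicate 3 and sham replicate 1, the libraries lowest in choroid plexus markers. With 3 libraries a group these values cannot show whether a pairing is absent. A replicate block gave 6332 calls, 59 of the listed genes and 6 of the enzymes, with Psat1 at an edgeR adjusted p of 0.0511. Setting the printed gene length in place of the one behind FPKM was chosen after seeing the data; it lowered Asns to 47.57 and Psat1 to 39.46 per kilobase in sham.

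In every library Pycr1 and Aldh1l2 had the lowest counts of the enzymes, at 103 to 259 and 77 to 633 counts per library. Mean CPM of Pycr1 was 3.998 in I/R (SD 1.479) and 3.044 in sham (SD 0.3654). For Aldh1l2 it was 10.07 in I/R (SD 3.54) and 3.177 in sham (SD 1.378). Whether depth or differences between libraries set the width of these estimates was not tested. With 3 pools per group, the adjusted p of Psat1 crossed 0.05 when single libraries were left out, while its log2 fold change stayed between 0.26 and 0.35. Levels relative to the scaling cannot show a change in total RNA.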

Other observations

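Choroid plexus markers were uneven between libraries of the same group, at 32.93 to 3610 CPM summed in I/R and 36.24 to 4404 CPM in sham, with I/R replicate 3 and sham replicate 1 lowest; with this score as a covariate 7 of the 8 enzymes were still called higher. Cell cycle genes summed to 126.7 to 130.1 CPM in I/R and 76.45 to 80.89 CPM in sham, and 4 of 8 were called higher. Pcna, which also acts in DNA repair, held most of the sum (mean of 99.9 CPM in I/R, against 61.1 in sham) and was called higher. So were Mcm2 (log2 fold change 1.01, edgeR adjusted p of 0.00529), Mcm5 (0.75, edgeR adjusted p of 0.0149) and Ccnb1 (1.96, edgeR adjusted p of 0.0229, at 3 to 22 counts per library). Mki67 (log2 fold change 0.11, edgeR adjusted p of 0.688) and Top2a (0.25, edgeR adjusted p of 0.54) were not called. Neither were Ccna2 (0.67) and Cdk1 (1.86), although all their I/R libraries lay above the sham libraries. Endothelial markers (5 of 6 called higher, 1 lower) and fibroblast markers (4 of 6 higher) were at 253.1 to 390.7 and 190.4 to 289.3 CPM in I/R against 183.7 to 185.7 and 144.5 to 172.4 CPM in sham. Microglial markers (3 of 6 higher, 2 lower) were at 231.8 to 323.1 CPM in I/R and 218.8 to 248.7 CPM in sham. Oligodendrocyte markers (3 of 6 lower) were at 4595 to 5092 CPM in I/R and 5812 to 7203 CPM in sham, and astrocyte markers (3 of 8 higher, 4 lower) at 4983 to 5282 and 5404 to 5696 CPM. Beside these counts, 21.8% of all genes were called higher and 19.9% lower. The part of these cell types in the enzymes' change was not tested.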
